A study of Mus musculus with 2 samples.

Results

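Cathepsins are the main proteases of the lysosome, and cystatins are small proteins that block the cysteine cathepsins. The genes described here were chosen by name: the cysteine cathepsins Ctsb, Ctsl, Ctsh, Ctsk, Ctss and Ctsz, the aspartic protease Ctsd, the serine carboxypeptidase Ctsa, and the cystatins Cst3 and Cst7. They are 10 of the 31053 genes in the files, of which 21566 had at least 1 UMI (unique molecular identifier, a count of an RNA molecule). All 10 symbols were found. Retinal cells of C57BL/6 wild-type mice, taken at postnatal day 17, had been dissociated with papain, enriched with beads against CD11b (an integrin of myeloid cells, microglia included) and sequenced in droplets. The control library held pooled retinas of 6 mice. The OIR library held pooled retinas of 6 mice with oxygen-induced retinopathy, in which pups and their nursing mother are kept in 75% oxygen from day 7 to day 12, growing vessels are lost, and the retina becomes short of oxygen back in room air. Each group is 1 library of pooled animals, so differences between the groups could not be tested over replicates. Intervals below are at 95% and hold for counting error alone.

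Cysteine cathepsins are made as inactive proenzymes and mature in the acid lysosome, where they degrade proteins taken up from outside or delivered from the cytoplasm. Ctss stays active at near neutral pH and cuts the invariant chain of class II molecules. Cst3 encodes cystatin C, a secreted inhibitor found in most body fluids, and Cst7 encodes cystatin F, an inhibitor of immune cells that is sent to the lysosome and acts on cathepsins there. In the retina, microglia clear debris by phagocytosis, and the pigment epithelium degrades shed photoreceptor discs in its lysosomes with Ctsd among the enzymes.

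On build mm10 the members lie on chromosomes 2, 3, 7, 9, 13 and 14. Ctsk (chr3:95499256-95509362) and Ctss (chr3:95526786-95556403) are neighbours on the plus strand, 17423 bases apart, with no protein-coding gene between them. Cst3 (chr2:148871722-148875692, minus strand) and Cst7 (chr2:150570415-150578944, plus strand) are 1694722 bases apart. Ctsa (chr2:164832873-164841032) overlaps Pltp and Neurl2 on the other strand, Ctsb (chr14:63122462-63145923) overlaps Fdft1, Ctsl (chr13:64359337-64370890) overlaps the antisense gene Gm47123, and Ctsz (chr2:174427493-174439039) overlaps Nelfcd. Whether the counting used strand is not given in the sources used here, so reads of such pairs may not be told apart. Over both libraries the overlapping partners had 407 to 2234 UMIs each, against 14764 for Ctsa, 53030 for Ctsb, 64052 for Ctsl and 35389 for Ctsz. Ctsd (chr7:142375911-142388038) and Ctsh (chr9:90054152-90076089) overlap no other gene with a UMI.

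The RefSeq promoter table (GRCm38.p6, 250 bases before to 50 after each start) matched 8 of the 10 members, with 9 promoters. Lysosomal genes are known for a CLEAR element, a binding site of the factor TFEB built on the letters CACGTG, and microglial genes for sites of the factor PU.1 around GAGGAA. The letters were searched on both strands. Of the members matched, 2 (Ctsa and Ctsd) held GTCACGTG or its reverse CACGTGAC, against 2.55% of 27025 genes with a promoter in the table. The shorter CACGTG, which lies inside the longer one, was in 3 members (Ctsa, Ctsd and Ctsl), against 8.09% of genes. GAGGAA or TTCCTC was in 3 (Ctsk, Ctss and Cst3), against 31.3%, so it is a common word. Ctsz and Cst7 held none of these words, and Ctsb and Ctsh were not matched. The sites are shown for the members whose levels differ most below, and for Ctsl; capitals mark the letters searched, each with up to 20 bases on either side, 5′ to 3′ on the gene's strand.
Ctsa, second promoter, chr2:164833739-164833786, plus strand, sites at -14 and 6 from the start: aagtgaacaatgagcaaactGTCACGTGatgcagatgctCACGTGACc
Ctsd, distal site, chr7:142388045-142388077, minus strand, at -245: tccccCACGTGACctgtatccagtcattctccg
Ctsd, proximal site, chr7:142387898-142387945, minus strand, at -98: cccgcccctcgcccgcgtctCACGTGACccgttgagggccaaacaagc
Ctsl, chr13:64370731-64370770, minus strand, at -236: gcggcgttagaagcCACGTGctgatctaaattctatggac
Ctss, upstream site, chr3:95526602-95526647, plus strand, at -164: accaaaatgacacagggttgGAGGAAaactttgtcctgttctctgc
Ctss, site at the start, chr3:95526766-95526811, plus strand, at 1: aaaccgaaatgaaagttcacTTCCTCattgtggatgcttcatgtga
Cst3, chr2:148875717-148875762, minus strand, at -230: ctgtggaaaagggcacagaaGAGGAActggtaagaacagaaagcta
A match is a description of letters, not a site shown to be bound, and the files hold no binding data.

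The control library had 10826 barcodes and the OIR library 7283, with 50081145 and 49773742 UMIs, and 8582 and 6136 cells remained after filtering. The filtered libraries had 28 cell barcodes in common. Cells were clustered without the members, other cathepsins and cystatins or lysosomal genes, and classes were named by other markers. Microglia-like cells numbered 841 in control and 598 in OIR, with medians of 6653 and 5997.5 UMIs. All 14 microglial markers were detected in both libraries, at a summed 33441 and 27324 CPM (counts scaled to 1e6 UMIs of the class). Despite the bead selection most cells were rod-like, 6651 and 3572. Haemoglobin made up 0.000568% of control and 0.598% of OIR UMIs in the microglia-like cells, and 4 Y-linked genes summed to 62.1 and 16.1 CPM. Their part in the results was not tested.

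Microglia-like cells were split by state with the same genes left out. Homeostatic cells, with high Tmem119 and P2ry12, were 570 of 841 in control (67.8%) and 95 of 598 in OIR (15.9%). This set includes a cluster of 17 control and 9 OIR cells led by Ifit3, Cxcl10 and Rsad2. Its Ctsd was at 5510 CPM in control and 3784 in OIR, opposite in direction to the homeostatic set as a whole. Its Ctss was at 7570 and 3853 CPM. Cells of clusters named for high Spp1, Lgals3, Mmp12 and Hmox1 were 7 in control (0.832%) and 298 in OIR (49.8%). The OIR cells held 68.3% of the UMIs of OIR microglia-like cells. Those 7 control cells had no Spp1 UMI. They clustered with the OIR cells, and the clusters were named from the counts of both libraries together. They are thus a thin base for a comparison. Another set carried rod RNA (138 and 124 cells). The last had few UMIs per cell (medians 1737 and 1678) and took no name (126 and 81 cells, called shallow here). The rod RNA and shallow sets may each hold cells of unlike activation. Summed microglial markers of the rod RNA set were at 29922 CPM in control and 25852 in OIR, against 34718 and 34753 in homeostatic cells. The part of such mixes in the ratios within these sets was not tested.

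In microglia-like cells as a whole, the OIR library had more Ctsb, Ctsa, Ctsd and Cst7 and less Ctss and Cst3. Of the 10 members, 9 reached 20 CPM in a library and were counted as measured. A gene was counted as apart where it was at least 1.5-fold higher or lower and its interval excluded equality. Of the 9, 4 were higher in OIR, against a background of 10.8% of 6058 genes measured, and 2 were lower, against 18.1%. The median log2 ratio of OIR over control was 0.51 for the 9 members and -0.13 for all genes measured. At a coarser clustering resolution of 0.5, where 105 of the 298 Spp1-high OIR cells stayed in the class, 1 member was higher and 1 lower. There a cluster of 13 control and 222 OIR cells was named neutrophil-like, at a score of 2.83 against 2.10 for microglia. Its leading genes were S100a9, S100a8, Hmox1, Spp1, Mmp12 and Lgals3. At a finer resolution of 2, 238 of the 298 stayed in the class. There a cluster of 0 control and 55 OIR cells was named erythroid-like. Hbb-bs, Hba-a1, Hmox1, Lgals3, Spp1 and Mmp12 were among its leading genes. Fewer cells of a kind and less RNA per cell cannot be told apart in summed counts, and the state shares above differ between the libraries.

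Ctsb, the abundant endo- and exopeptidase of the lysosome, had 9838 UMIs in control and 19196 in OIR microglia-like cells. That is 1470 against 3288 CPM, a log2 ratio of 1.16 (1.13 to 1.20). Within states it was 1463 against 2174 CPM in homeostatic cells (log2 ratio 0.57, 0.49 to 0.65), and 1436 against 2684 CPM in cells carrying rod RNA (0.90, 0.81 to 0.99). Ctsb was thus higher in OIR in each of those sets of cells as well as in the whole class. The Spp1-high OIR cells were at 3711 CPM, above every other OIR state, and the 7 control cells of that state were at 4088 CPM with an interval that overlaps it. The OIR cells of this state exceeded the homeostatic cells of the same library by a log2 of 0.77 (0.70 to 0.85), a step found in the deeper of its 2 clusters.

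Ctsl, a cysteine endopeptidase, went from 2073 CPM in control microglia-like cells to 2946 CPM in those of OIR. Its log2 ratio, 0.51 (0.47 to 0.54), is under 1.5-fold. The ratio was 0.35 (0.28 to 0.42) in homeostatic cells, 0.40 (0.18 to 0.61) in shallow cells and 0.49 (0.40 to 0.57) in cells carrying rod RNA. Ctsl therefore differed by a similar step in these 3 states, and its Spp1-high OIR level of 3095 CPM was 0.19 (0.12 to 0.26) above the homeostatic OIR level on the log2 scale, with its 2 clusters on opposite sides.

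Ctsh, an aminopeptidase among the cysteine cathepsins, differed little in the whole class, with 855 CPM for control and 870 for OIR (log2 ratio 0.03, -0.03 to 0.08). By state Ctsh was at 898 and 1026 CPM in homeostatic cells, 562 and 526 in shallow cells and 722 and 746 in cells carrying rod RNA. It was lower in Spp1-high than in homeostatic OIR cells (885 against 1026 CPM, log2 ratio -0.21, -0.33 to -0.10). That step was -0.15 (-0.27 to -0.04) in the deeper Spp1-high cluster and -1.05 (-1.29 to -0.81) in the other. Ctsz, a carboxypeptidase, was at 1825 and 2327 CPM in the whole class (0.35, 0.32 to 0.39). Homeostatic cells had 1867 and 1799 CPM of Ctsz (log2 ratio -0.05, -0.14 to 0.03), an interval that includes equality. The Ctsz level of Spp1-high OIR cells was 2547 CPM, a log2 of 0.50 (0.42 to 0.59) above the homeostatic cells of that library.

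Ctss, the cathepsin of antigen-presenting cells, was lower in OIR, unlike Ctsb, Ctsl and Ctsz. It had 48706 UMIs in control and 24794 in OIR microglia-like cells, 7276 against 4247 CPM (log2 ratio -0.78, -0.80 to -0.75). Homeostatic cells had 7491 and 6843 CPM (log2 ratio -0.13, -0.17 to -0.09). The Spp1-high OIR cells were at 3797 CPM, below homeostatic OIR cells (log2 ratio -0.85, -0.90 to -0.80). Cells carrying rod RNA (6563 against 4126 CPM, -0.67) and shallow cells (6762 against 4478 CPM, -0.59) lay below control as well. Among the 4 states Ctss was thus closest to control in the homeostatic cells.

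Ctsk, known for the breakdown of bone matrix in osteoclasts, was close to absent, with 3 UMIs in control and 4 in OIR microglia-like cells. It did not reach 20 CPM there, and no ratio was read from it.

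Ctsd, the aspartic protease of the lysosome, is not blocked by cystatins. It reached 5000 CPM in control microglia-like cells and 7849 in OIR (log2 ratio 0.65, 0.63 to 0.67). Homeostatic cells were at 5022 and 6757 CPM, a ratio of 0.43 (0.38 to 0.47). Spp1-high OIR cells were at 8424 CPM, while the 7 control cells were at 11534 CPM, so within that state the OIR library was the lower (-0.45, -0.55 to -0.36). Ctsa, the protective protein that carries carboxypeptidase activity and stabilises lysosomal sialidase and galactosidase, was at 542 and 943 CPM (0.80, 0.74 to 0.86). In homeostatic cells Ctsa was at 555 and 623 CPM, 0.17 (0.02 to 0.31). It was at 1074 CPM in Spp1-high OIR cells, 0.79 (0.65 to 0.93) above the homeostatic cells of that library, again in the deeper cluster.

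Cst3, cystatin C, was the member with the most UMIs in both libraries. It had 188675 UMIs in control and 79904 in OIR microglia-like cells, 28184 against 13687 CPM, a log2 ratio of -1.04 (-1.05 to -1.03). It was lower in OIR in all 4 states: homeostatic cells were at 28807 and 20595 CPM (-0.48), shallow cells at 33210 and 20659 (-0.68), cells carrying rod RNA at 25073 and 12598 (-0.99), and Spp1-high cells at 18691 and 12437 (-0.59). The homeostatic OIR cells lay between homeostatic control cells and Spp1-high OIR cells.

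Cst7, cystatin F, was scarce in control and higher in OIR. It had 145 UMIs in control and 713 in OIR, 21.7 against 122 CPM, a log2 ratio of 2.50 (2.24 to 2.76). It was higher in OIR in all 4 states: 18.6 against 59.4 CPM in homeostatic cells (1.68, 1.12 to 2.21), 39.8 against 186 in shallow cells (2.23), 30.3 against 93.3 in cells carrying rod RNA (1.62), and 36.0 against 138 in Spp1-high cells (1.94, from 3 control UMIs). After each cell was thinned to 1500 UMIs, 26 of 785 control microglia-like cells (3.31%, 2.17 to 4.82) and 93 of 518 OIR cells (18%, 14.7 to 21.5) had at least 1 Cst7 UMI, with 56 and 80 shallower cells left out. Without thinning the shares were 11.2% and 41.0%. In rod-like cells, which should lack the gene, thinned shares were 0 of 2909 in control (upper bound 0.127%) and 1 of 1761 in OIR (0.0568%). Before thinning, the cells kept had medians of 6980 and 7113 UMIs (microglia-like) and 2511 and 2789 (rod-like). The microglial shares lay above this background in both libraries.

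**Figure D1:**
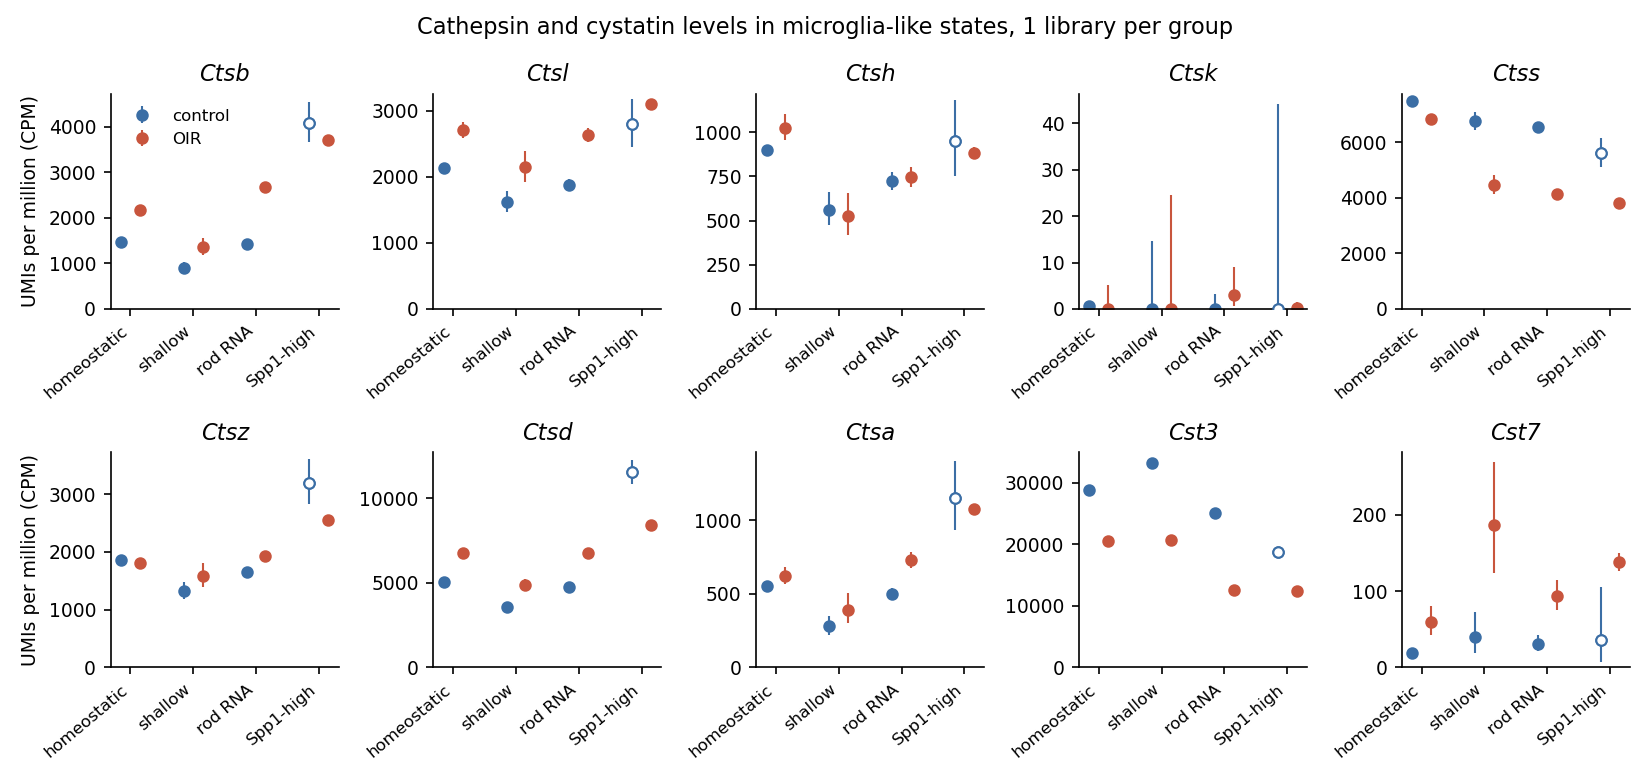
Level of each member (CPM of the state, linear axis from 0) in the 4 microglia-like states, control in blue and OIR in red, with exact Poisson 95% intervals. The open blue points are the 7 control Spp1-high cells. Ctsb and Ctsd are higher and Cst3 lower in OIR in the homeostatic, shallow and rod RNA states, Cst7 is higher in all 4, and Ctsk is near 0.

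Inside homeostatic cells alone the pattern was smaller. Of the 9 measured members, 1 (Cst7) was at least 1.5-fold higher in OIR, against 6.58% of 6098 genes, and 0 were lower, against 5.9%. Ctsb (0.57) lay just under the 1.5-fold line. In cells carrying rod RNA, 2 were higher (Ctsb and Cst7, against 8.11% of 6576 genes) and 2 lower (Ctss and Cst3, against 11.2%). In shallow cells the same 4 genes were called, 2 higher against 6.28% of 4124 genes and 2 lower against 1.87%. Between states of the OIR library, Spp1-high cells had 3 of 9 members higher than homeostatic cells (Ctsa, Ctsb and Cst7, against 7.88% of 6017 genes) and 2 lower (Ctss and Cst3, against 17.9%). Haemoglobin took 0.862% of UMIs in the Spp1-high and 0.0197% in the homeostatic OIR cells; its part in these differences was not tested. The Spp1-high state held 2 clusters in OIR, 190 deep cells (median 15273.5 UMIs) and 108 shallower ones (2386). Ctsa and Ctsb exceeded homeostatic OIR cells in the deep cluster (log2 ratio 0.85 and 0.82) and not in the other (-0.16, -0.41 to 0.09, and 0.12, -0.0045 to 0.24). Ctsl was above them in the deep cluster (0.23) and below in the other (-0.24, -0.36 to -0.13). Cst7 (1.147 and 1.79), Ctsd (0.32 and 0.32), Ctss (-0.82 and -1.15) and Cst3 (-0.74 and -0.61) lay on the same side in both. Against its 7 control cells, the Spp1-high state of OIR had 1 member higher (Cst7, against 2.66% of 6275 genes) and 1 lower (Cst3, against 4.86%). Within control, cells carrying rod RNA had 1 member higher than homeostatic cells (Cst7, log2 ratio 0.71, 0.11 to 1.28, against 11% of 6369 genes) and 0 lower, against 2.1%. In OIR the cells carrying rod RNA were further from the homeostatic cells, with Ctss at 4126 against 6843 CPM and Cst3 at 12598 against 20595 CPM.

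**Figure D2:**
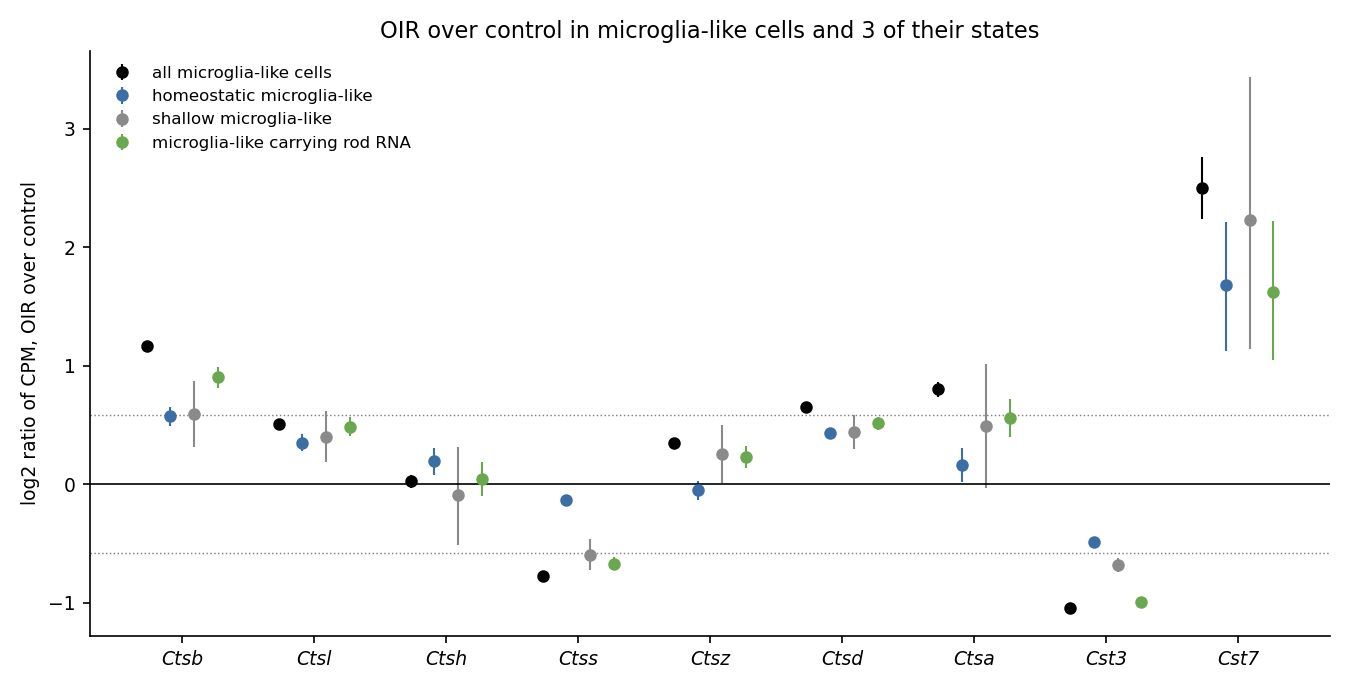
Log2 ratio of OIR over control for the 9 measured members, in all microglia-like cells (black) and in 3 states, with exact 95% intervals for counting error. Dotted lines mark 1.5-fold. Ctss and Cst3 lie below 0 in all 4 groups of cells, Ctsb, Ctsl and Ctsd above, and homeostatic cells lie nearer to 0 than the whole class for Ctsb, Ctsa, Ctss, Cst3 and Cst7.

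The shares of the states and the levels within them were separated by arithmetic. With the control levels of each state weighted by its OIR share of UMIs, the log2 ratio to control would be 1.14 for Ctsb, 0.80 for Ctsa, 0.58 for Ctsz, 0.91 for Ctsd, 0.29 for Ctsl, -0.27 for Ctss, -0.40 for Cst3 and 0.61 for Cst7. With the OIR levels weighted by the control shares it would be 0.62, 0.24, -0.00031, 0.42, 0.37, -0.22, -0.56 and 1.72. State shares alone thus come to about the class ratio for Ctsa and Ctsb and exceed it for Ctsd (0.65) and Ctsz (0.35). Levels within states give the larger of the 2 values for Cst7, Cst3 and Ctsl. The 2 values need not add up to the class ratio. The first set rests on 7 control cells of the Spp1-high state, which took most of the weight.

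Counts per cell at equal depth were ordered in the same way for Cst3, Ctss, Ctsb and Ctsd. Of 1500 UMIs drawn from each cell, homeostatic control cells held a median of 41 Cst3 UMIs (quartiles 34 and 53), homeostatic OIR cells 29 (21 and 41) and Spp1-high OIR cells 18 (12 and 24). For Ctsb the medians were 2, 3 and 4, and for Ctsd 7, 10 and 11. Ctss had medians of 11, 9 and 5. The quartile ranges of homeostatic control and Spp1-high OIR cells did not overlap for Cst3, met at 8 UMIs for Ctss, and overlapped for Ctsb and Ctsd. Medians of Ctsa (1), Ctsh (1), Ctsl (3) and Cst7 (0) were equal in the 3 groups, and those of Ctsz were 3, 2 and 3. These groups held 564, 89 and 270 cells of at least 1500 UMIs.

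**Figure D3:**
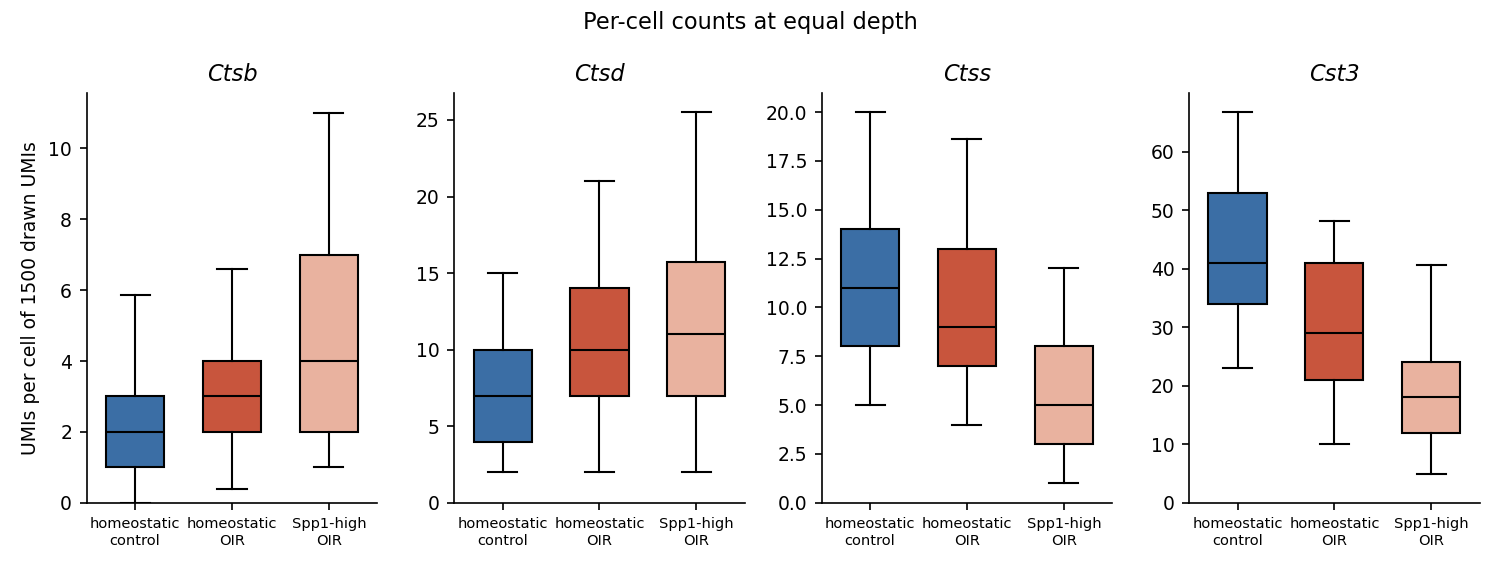
UMIs of 4 members per cell after drawing 1500 UMIs from each cell (linear axes from 0), in homeostatic control, homeostatic OIR and Spp1-high OIR cells. Boxes are quartiles with the median, and whiskers reach the 5th and 95th percentiles over cells. Median Cst3 goes from 41 to 29 to 18 and median Ctsb from 2 to 3 to 4.

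The members together took 4.72% of the UMIs of control and 3.63% of those of OIR microglia-like cells. Cst3 made up 59.7% of the members' UMIs in control and 37.7% in OIR, while Ctsd went from 10.6% to 21.6% and Ctsb from 3.11% to 9.06%. Cystatin UMIs (Cst3 and Cst7) per UMI of the 6 cysteine cathepsins were 2.09 (2.07 to 2.11) in control and 1.01 (0.9997 to 1.02) in OIR. In homeostatic cells the figure was 2.08 against 1.42, in cells carrying rod RNA 2.05 against 1.05, in shallow cells 2.97 against 2.06, and in Spp1-high cells 1.12 (7 cells) against 0.896. The OIR value was the lower in all 4 states. A lower OIR value was not confined to myeloid cells, as rod-like, bipolar-like and endothelial-like cells (2.06 against 1.253) had it too. These are transcript counts and say nothing of protein or inhibition.

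**Figure D4:**
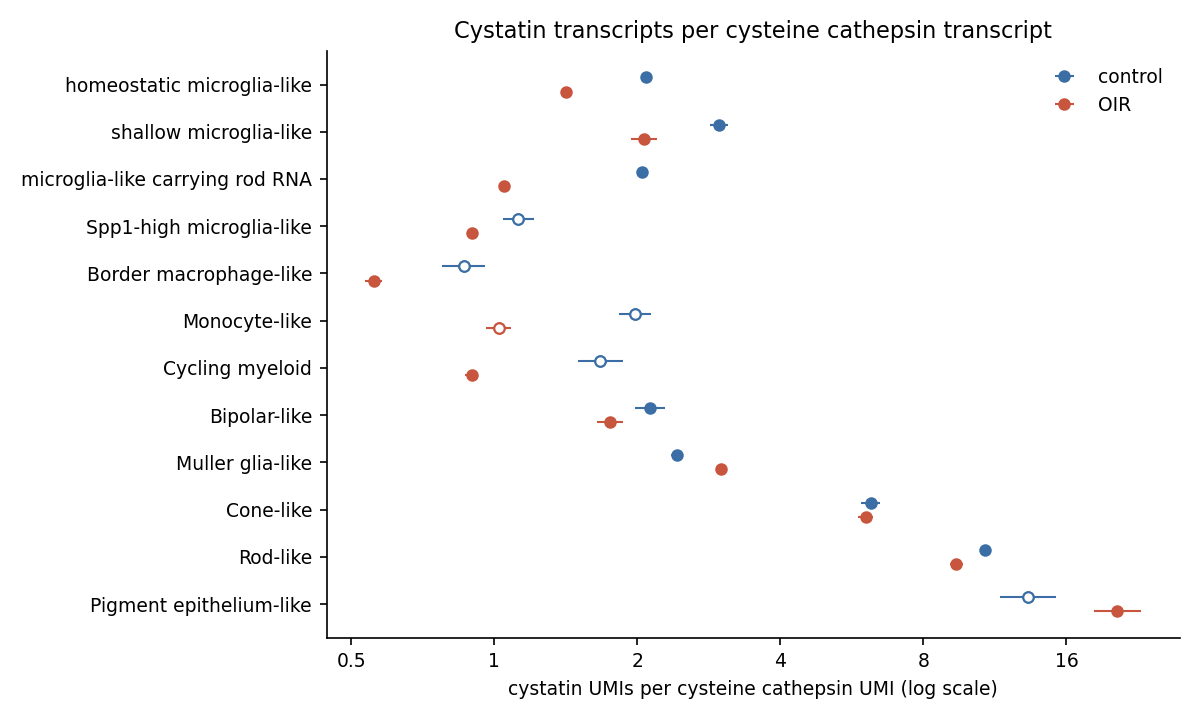
Cystatin UMIs per cysteine cathepsin UMI (log axis) by state and class, control in blue and OIR in red, with exact 95% intervals. Open points have under 30 cells. All 7 myeloid groups plotted have the OIR point to the left of control, while Muller glia-like cells go from 2.43 to 2.997 and pigment epithelium-like cells from 13.3 to 20.5. Rod-like (10.8 to 9.38) and bipolar-like cells (2.13 to 1.75) also have the lower value in OIR.

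Border macrophage-like and monocyte-like cells of OIR carried less of most members than the microglia-like cells of that library. The 71 border macrophage-like cells (Mrc1, Pf4 and F13a1 among their markers) of OIR were at least 1.5-fold below microglia-like cells for 7 of 9 measured members, against 12.4% of 6131 genes. Ctsd was at 2582 against 7849 CPM (log2 ratio -1.60), Cst3 at 4399 against 13687 (-1.64), and Cst7 at 6.89 against 122 (-4.15, from 6 UMIs). Ctsb (2654 against 3288 CPM, -0.31) and Ctsh (706 against 870, -0.30) were closer. The 29 monocyte-like OIR cells were lower for 8 of 9 members, against 13.2% of 6214 genes, with Ctss the least far among those called (2518 against 4247 CPM, -0.75). The 64 cycling myeloid cells of OIR, which mixed microglial and border macrophage markers, were lower for 3 of 9 (Ctsa, Ctsd and Cst3), against 9.03% of 6269 genes, and held Cst7 at 107 CPM. Against their few control counterparts (7 to 12 cells), all 3 groups had less Cst3 in OIR. It was 9420 and 4399 CPM in border macrophage-like, 15002 and 6875 in monocyte-like and 17630 and 9016 in cycling cells. Other members differed too. In border macrophage-like cells 4 of 8 measured members were lower in OIR (Ctsd, Ctsh, Ctss and Cst3, against 6.99% of 6635 genes) and 1 was higher (Ctsl, 863 against 1519 CPM, log2 ratio 0.82, against 5.34%). In monocyte-like cells 2 of 9 were lower (Ctss and Cst3, against 5.57% of 6386 genes) and 1 higher (Ctsb, 874 against 1470 CPM, 0.75, against 2.93%). In cycling cells 2 of 9 were lower (Ctss and Cst3, against 4.96% of 6346 genes) and 2 higher (Ctsb, 858 against 2513 CPM, 1.55, and Ctsa, 332 against 551 CPM, 0.73, against 2.03%). The control and OIR cells of these groups were not alike in other markers. Summed microglial markers were lower in OIR, 29219 against 20632, 15058 against 10699 and 31848 against 23932 CPM in border macrophage-like, monocyte-like and cycling cells. The 9 border macrophage markers went from 3847 to 14163 CPM in border macrophage-like cells and from 117 (8 at 0) to 3394 in cycling cells. The 6 erythroid markers went from 0 to 16037 CPM in monocyte-like cells. The part of these mixes in the member values was not tested. Neutrophil-like cells (10 and 16) had microglial markers at 28112 and 17511 CPM, so member values in them were not read.

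Outside the myeloid cells the members fell into 3 kinds by where their RNA was found. For each class a free RNA level was computed, the UMIs expected if all came with C1qa, C1qb, C1qc, Tyrobp and Fcer1g in the proportion seen in microglia-like cells of that library. Ctss was near this level in most classes: observed over expected was 0.77 (0.66 to 0.90) in control and 1.01 (0.86 to 1.17) in OIR rod-like cells, and 0.74 and 0.94 in Muller glia-like cells. It was 1.31 (0.98 to 1.75) in control cone-like cells and 1.92 (1.02 to 3.43, from 16 UMIs) in OIR erythroid-like cells. Its 217 and 201 rod UMIs are read as background, and so is the raw rod ratio of 12.9 against 19.97 CPM. Ctsh was near it in rod-like cells (1.30 and 1.03) and at 2.17 (lower bound 1.13, from 13 UMIs) in control cone-like cells, but at 111 and 69.5 times it in Muller glia-like cells. Cst7 had at most 7 UMIs in any class outside the myeloid cells.

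Cst3, Ctsb, Ctsl, Ctsa, Ctsd and Ctsz exceeded the free RNA level in the rod-, cone-, bipolar- and Muller glia-like cells of both libraries. In control rod-like cells Cst3 was at 61.6 times that level, Ctsb at 46.6, Ctsl at 36.5, Ctsa at 24.4, Ctsd at 9.84 and Ctsz at 5.32. Cst3 was found in 99.3% of 2909 control rod-like cells and 98.6% of 1761 OIR rod-like cells thinned to 1500 UMIs. Rods are thus a large source of cystatin C transcripts in these libraries, with 3995 CPM for control and 3904 for OIR (log2 ratio -0.03, -0.05 to -0.02). Free rod RNA can add to Cst3 in other classes in turn, which the microglial genes used here do not measure.

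**Figure D5:**
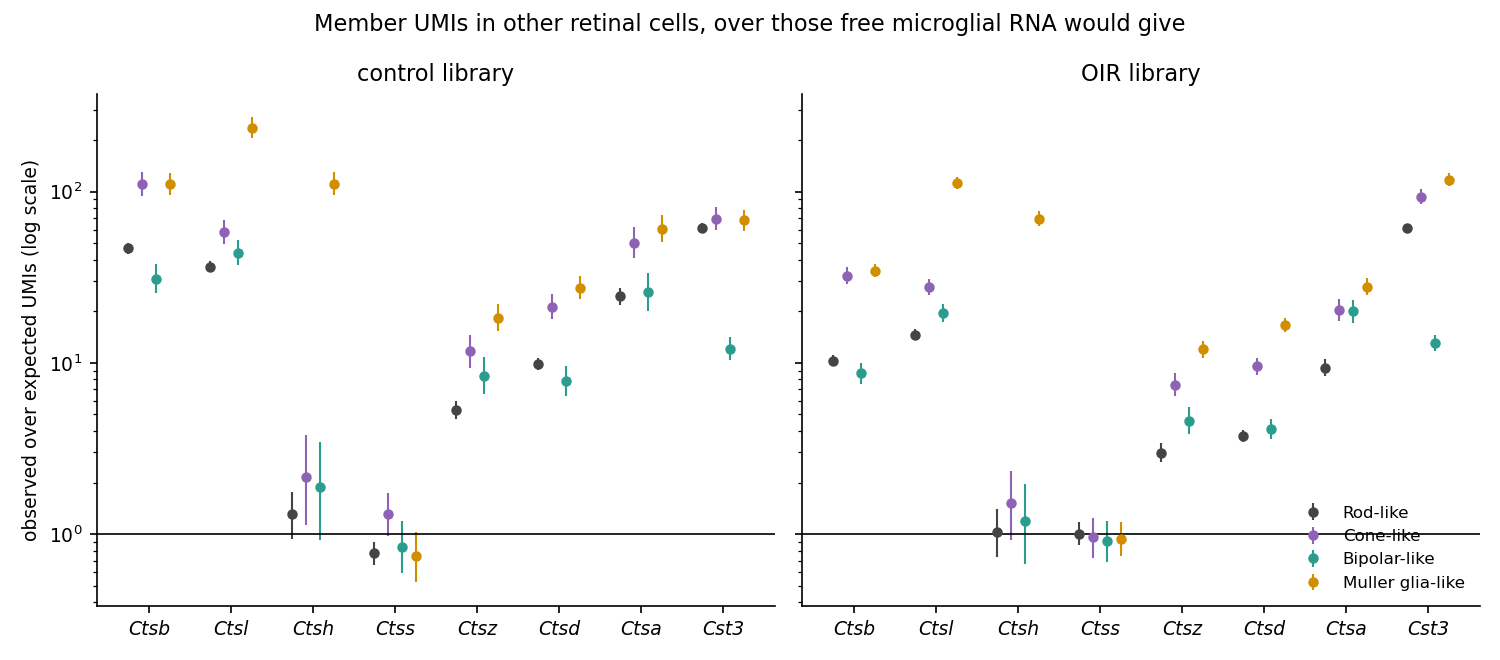
UMIs of 8 members in rod-, cone-, bipolar- and Muller glia-like cells over the UMIs expected from free microglial RNA (log axis, line at 1), for each library, with exact 95% intervals. Ctss lies between 0.74 and 1.31 in the 4 classes, Ctsh is far above 1 in Muller glia-like cells, and Cst3, Ctsb and Ctsl are above it throughout. The expected UMIs cover free microglial RNA only, not rod RNA.

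Muller glia, the radial glia of the retina, had 655 CPM of Ctsl in control and 652 in OIR, above the rod-, cone- and bipolar-like cells. Ctsh was at 127 and 119 CPM in them. Cst3 of the whole class was at 2556 CPM for control and 3172 for OIR (log2 ratio 0.31, 0.28 to 0.34), opposite in sign to microglia-like cells. Rod markers took 3.91% of control and 3.69% of OIR UMIs in this class, against 5.80% and 4.82% in rod-like cells. Rod RNA can thus carry Cst3 into these values, and its part in them was not tested. The libraries filled the 2 Muller glia-like clusters differently, with 202 control and 551 OIR cells in one and 190 and 50 in the other. In the larger cluster Cst3 was at 3196 and 3256 CPM (0.03, -0.0014 to 0.06), and in the smaller at 944 and 1617 CPM (0.78, 0.66 to 0.89). The class ratio was thus not seen in the cluster that holds most of the OIR cells. Ctsd of the class was at 184 and 258 CPM (0.49, 0.39 to 0.59). In the whole class 0 of 7 measured members were 1.5-fold apart, against 4.34% of 6776 genes higher and 5.61% lower.

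Rod-, cone- and bipolar-like cells differed little between the libraries. In rod-like cells 0 of 6 measured members were apart (4.24% of 6573 genes were higher and 1.28% lower), and the same held for cone-like cells (2.73% and 2.04% of 6521). In bipolar-like cells 1 of 6, Ctsa, was higher in OIR (34.9 against 68.6 CPM, log2 ratio 0.98, 0.64 to 1.32), against 4.17% of 7172 genes, and 0 were lower, against 6.73%. Cst3 of bipolar-like cells was at 846 and 649 CPM (-0.38), below rod- and cone-like cells. The libraries filled the bipolar-like clusters differently (63 control and 231 OIR cells, and 204 and 244). The part of this mix in the Ctsa and Cst3 ratios was not tested. The 23 and 19 horizontal-like cells, whose cluster scored nearly as high for amacrine (3.97) as for horizontal markers (4.12), had 3 of 6 members higher in OIR (Cst3, Ctsz and Ctsd, against 6.65% of 7712 genes) and 1 lower (Ctsl, against 11.9%). Cst3 was at 763 and 2278 CPM there (170 and 730 UMIs, 1.58, 1.34 to 1.83) and Ctsl at 880 and 381 CPM (-1.21).

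Pigment epithelium-like cells, with Rpe65 at 2776 and 3175 CPM, were few (28 and 42). They had Cst3 at 31839 and 41158 CPM (log2 ratio 0.37, 0.31 to 0.43), above microglia-like cells of either library, and Ctsd at 3342 and 2914 CPM (-0.20, -0.41 to 0.01). Ctsk reached 20 CPM in this class and, from 1 UMI, in the control erythroid-like cells. It had 5 UMIs in control and 14 in OIR pigment epithelium-like cells (52.4 and 87.2 CPM; log2 ratio 0.73, -0.82 to 2.56). Ctss and Ctsh had 0 to 2 UMIs. Of 7 members measured, Ctsb was lower in OIR (754 against 492 CPM, -0.62, -1.10 to -0.14) and 0 were higher, against 2.87% and 0.995% of 6231 genes. Endothelial-like cells (48 and 16) had Ctsh at 586 and 238 CPM, in control at 36.1 times the free RNA level. Their control Ctsk, under 20 CPM, was at 18.4 CPM (13 UMIs), the highest among control classes with at least 30 cells. Of 8 measured members 1 (Ctsb, 143 against 422 CPM) was higher in OIR endothelial-like cells and 3 (Ctsh, Ctss and Cst3) lower, against 9.59% and 18% of 7056 genes. The cluster also held mural cell genes (Rgs5, Acta2 and Tagln among its leading genes): endothelial markers summed to 8193 CPM in control and 4503 in OIR, and pericyte markers to 3041 and 4132, and their part in these values was not tested. Their control Ctss of 117 CPM was at 0.85 times that level, and their summed microglial markers were at 675 CPM in control and 19.4 in OIR. Ctss there is read as background.

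Among classes with at least 30 cells, microglia-like cells ranked first in both libraries for Ctsa, Ctsb, Ctsd, Ctsh, Ctsl, Ctss, Ctsz and Cst7. The interval of Cst7 in OIR microglia-like cells overlapped that of cycling myeloid cells (107 CPM); the other 7 did not overlap the next class. Cst3 came first in microglia-like cells of control and second, after the pigment epithelium-like cells, in OIR. The 28 control pigment epithelium-like cells fell under the 30-cell minimum, and their Cst3 was above that of control microglia-like cells too. The 11 control border macrophage-like cells fell under it as well. Their Ctsb (2506 against 1470 CPM in control microglia-like cells), Ctsh (1534 against 855) and, from 50 UMIs, Ctsa (685 against 542) were higher. Their Ctsd, Ctsl, Ctss, Ctsz, Cst3 and Cst7 were lower. The 7 control cycling myeloid cells lay above for Ctsz (1891.8 against 1824.5 CPM) and, from 2 UMIs, for Cst7, and below for the rest.

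Across the 20 groups of cells with at least 30 cells, the genes of most alike pattern were listed for each member by Pearson correlation of log2(CPM + 10), as a description, since the groups share 2 libraries. Ctss was closest to Ly86 (0.999), Trem2 (0.997) and Rgs10 (0.995), genes of microglia, and Ctsz to Fcrls (0.992), Grn and Cd52. Ctsa was closest to Hexa (0.971), Dnase2a and Ctsb, Ctsb to Ctsa (0.970), Sgpl1 and Dnase2a, and Ctsd to Hexa (0.979), Npc2 and Dnase2a. Hexa, Dnase2a and Npc2 encode lysosomal proteins. Ctsl was closest to Timp2 (0.976), Efhd2 and Lamp2, Ctsh to Clic1 (0.983), Axl and Tnfaip8, and Cst7 to Cd72 (0.948), Pilra and Creg1. Ctsk followed Flvcr2 (0.993), Stra6 and Col8a1, with Stra6 known as the receptor for retinol-binding protein in the pigment epithelium. Cst3 had the weakest partners, Iscu (0.916), Ldhb and Cd82. Among the members, Ctsz correlated at 0.970 with Ctss and at 0.965 with Ctsa.

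Other genes of the pathway were read in microglia-like cells from lists that hold none of the members. Over all 6058 genes measured there, 10.8% were higher, 18.1% lower and the median was -0.13, and the counts below are to be read against these. Of 22 other cystatins, stefins and protease inhibitors in the files, 4 were measured and all 4 were higher in OIR (median log2 ratio 2.35). Cstb, the cytoplasmic cystatin B, was at 139 and 626 CPM (2.17), and at 1.18 (0.94 to 1.41) within homeostatic cells. Ctla2a, an inhibitor that resembles a cathepsin propeptide, was at 3.44 and 73.3 CPM (4.42), Ctla2b at 13 and 22.3 (0.78) and Serpinb6a at 11.1 and 63.4 (2.52). The inhibitor transcripts measured thus included Cst3, which was lower, and Cst7, Cstb, Ctla2a, Ctla2b and Serpinb6a, which were higher. Of 15 other cathepsins, 3 were measured: Ctsf was lower (255 against 141 CPM, -0.85), Ctsc was at -0.26 and Ctso at -0.50.

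Of 38 lysosomal hydrolases and helpers 35 were measured, of which 5 were higher and 3 lower, with a median of 0.04. The largest were Gla, the alpha-galactosidase (6.72 against 43.7 CPM, 2.70), Pla2g15, a lysosomal phospholipase (156 against 51.7, -1.59), and Galns, a sulphatase (12.8 against 33.7, 1.39). Of 24 genes of the lysosomal membrane and proton pump 20 were measured, with 3 higher and 0 lower (median 0.15): Atp6v1a, a pump subunit (1.14), Cd63 (0.91) and Cd68 (0.64), both membrane proteins. Of 13 genes of lysosomal regulation and sorting 9 were measured, with 2 higher and 2 lower (median -0.11). Tfeb was at 23.6 and 14.4 CPM (-0.71), its relative Tfe3 at 199 and 121 (-0.72), and Gnptab, which helps tag enzymes for the lysosome, at 13 and 21.6 (0.73). Of 9 genes of class II antigen processing 6 were measured, with 2 higher and 1 lower (median -0.45). H2-Ab1 (1.42) and Cd74, the invariant chain that Ctss cuts (1.09), were higher, and H2-Oa was lower (-1.23). Under 20 CPM and so not counted, H2-Aa (11.2 against 4.28 CPM, -1.39) and H2-Eb1 (11.7 against 6.51, -0.84) went the other way from H2-Ab1. In homeostatic cells alone Cd74 was at -0.43 (-0.98 to 0.08, from 327 and 34 UMIs), H2-Ab1 at 0.65 and H2-Oa at -0.53. Cd68 (-0.03) and Tfe3 (0.01) showed no such difference there either. The 3 lysosomal lists thus had medians near 0, with single genes on both sides.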

How the data were processed

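Retinal cells of 2 libraries (control and OIR, 1 each) were compared. The authors deposited unnormalised UMI counts for every gene and barcode, made with Cell Ranger 3.0.2 on build mm10, per the submitters' processing notes. Annotation release and settings are not stated in the sources at hand. Members and lists were chosen with earlier results of these data known, and the naming and cycling rules were set with the data at hand.

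Barcodes needed 500 genes or more and no more than 10% mitochondrial UMIs (9454 control, 6516 OIR kept). Scrublet called 0 and 1 doublets, so the top scores at 0.8% per 1000 barcodes were removed (938 and 424). Cells were clustered with scanpy 1.11.5 (2000 variable genes, 30 components, 20 neighbours, Leiden resolution 1), and a cluster was named where a marker list led by a score of at least 0.5 with at least 3 markers in 10% of cells. Myeloid clusters were clustered again for states, and a cluster with a cycling score of at least 2 was kept apart. Counts were summed per class and scaled to CPM. Intervals at 95% are exact Poisson (CPM), conditional binomial (ratios) and Clopper-Pearson (shares), and cover counting error only. A count of 0 was set to 3 in a ratio, and no ratio was given where both counts were at or under 3. With 1 library per group no statistical test was run. Calls needed 20 CPM in a library, a 1.5-fold difference and an interval excluding 0. The ratio step was tested on simulated counts. The named genes were all members, every measured cathepsin, cystatin and inhibitor of the lists, the 3 measured genes of largest absolute ratio of each other list, and the 3 most alike genes per member among those with at least 50 CPM. H2-Aa and H2-Eb1, under the CPM minimum, were named in addition. Protein sequences were not used here.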

Additional observations from a re-analysis of the deposited data

Results flagged for a closer look

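Cst3 was at a log2 ratio of OIR over control of 0.31 in Muller glia-like cells (392 and 601 cells) and -1.04 in microglia-like cells (841 and 598 cells), opposite signs with intervals that each exclude 0. Muller glia-like cells lay in 2 clusters that the libraries filled differently (202 control and 551 OIR cells, and 190 and 50). Within them the ratio was 0.03 (-0.0014 to 0.06) and 0.78 (0.66 to 0.89). Rod markers took 3.91% of control and 3.69% of OIR UMIs in Muller glia-like cells. The part of rod RNA in their Cst3 was not tested. The difference between the classes was not tested, since each group is 1 library.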

How the results depend on the processing

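Beside the main settings 14 alternatives were run for the microglia-like class, 4 of them chosen after seeing the data. Of 136 member ratios under them, 75 stayed within the counting interval of the main value, 59 moved beyond it without turning a ratio whose interval excludes 0, and 2 turned such a ratio, both for Ctsz: -0.00496 at clustering resolution 0.5 and -0.053 in homeostatic cells only. Ctsh, whose main interval includes 0, took either sign (-0.13 to 0.19). The ranges were 0.57 to 1.27 for Ctsb, 0.17 to 0.91 for Ctsa, 0.37 to 0.76 for Ctsd, -0.82 to -0.13 for Ctss, -1.10 to -0.48 for Cst3 and 1.68 to 2.69 for Cst7. The count of members higher in OIR (4) was 1 at resolution 0.5, where 105 of the 298 Spp1-high OIR cells stayed in the class, 2 with the mean of each cell's CPM, 2 without the Spp1-high cells and 1 in homeostatic cells only. The count lower (2) was 1, 1 and 0 at resolution 0.5, without the Spp1-high cells and in homeostatic cells only. The median member ratio (0.51) was 0.62 under median of ratios scaling (its OIR over control factor differs from that of the totals by -0.11 on the log2 scale, and 5 members are higher), 0.20 at resolution 0.5, 0.28 with the mean of each cell's CPM, 0.56 with no CPM minimum, 0.31 without the Spp1-high cells, 0.19 in homeostatic cells only and 0.46 with the cycling myeloid cells added. Fewer cells of the Spp1-high state enter by construction in 3 of these, and the cause was not tested for the others. Cst7 shares of microglia-like cells were 2.28% and 8.62% thinned to 1000 UMIs, and 5.49% and 20.7% thinned to 2500. Cst3 in Muller glia-like cells (0.31) was 0.03 and 0.78 within the 2 clusters of the class, an alternative also chosen after seeing the data. No paired analysis was possible because each group has 1 library. Depth limits Ctsk in all myeloid cells, Cst7 in control and every control value of the Spp1-high, border macrophage-like, monocyte-like and cycling groups.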
